A study of Danio rerio with 6 samples.

Results

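The transcript profile of mpeg1-GFP positive cells sorted from wild-type adult zebrafish brains was described from 2 control libraries, of 6 libraries in 3 groups in the series. Members were chosen by label alone: both libraries titled as microglia controls were used, and no mutant library entered any value. The control fish were wild type, of the TLF x AB strain, carried the mpeg1-GFP line and were 9 to 12 months old, as were all fish of the series by age, strain and line. The sort selects cells in which the promoter of mpeg1, a macrophage gene for a pore-forming protein, drives green fluorescent protein; in zebrafish this promoter is also active in some other leukocytes, so the gate does not by itself separate microglia from other mpeg1-positive cells. Brains were dissociated with trypsin on ice, cells were enriched on Percoll, and RNA was amplified with a low-input kit. Whether different fish or pools stand behind the libraries is not in the labels, and the spread between them may be technical.

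Microglia are the resident macrophages of the brain. They clear dying cells and debris by phagocytosis, degrade them in lysosomes, handle the lipids released, and present antigen, and they depend on the CSF1 receptor, which zebrafish carry as the pair csf1ra and csf1rb. In adult zebrafish brains apoeb, p2ry12, ccl34b.1 and csf1rb are commonly used to mark them.

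The table holds 21860 entries, and signal is the deposited value, reads over an effective library size, scaled as counts per 1e6. The libraries held 4241988 reads in control replicate 1 and 7830510 in control replicate 2 over these entries, so 1 read was worth a signal of 0.136 and 0.123. A count of 3 reads, used as the floor, corresponds to a signal of 0.408 in replicate 1 and 0.370 in replicate 2. Effective size over total reads was 1.73 in replicate 1 and 1.03 in replicate 2. The median ratio of replicate 2 over replicate 1 among genes with a mean signal of at least 10 was therefore 1.47 (0.56 on the log2 scale), against -0.19 on the log2 scale when the same reads are divided by their totals. Folds between the libraries are given on the deposited scale and should be read against that shift, and shares of reads are free of it. The widest 95% Wilson interval of any share of reads printed is 0.0476 percentage points to either side, for counting error only. Ranks order genes by their reads, not by molecules: transcript lengths were not used, and a longer transcript gives more reads.

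The highest-ranked named genes were those of antigen presentation, lipid transport, the actin cytoskeleton, mitochondrial respiration and 1 chemokine. The class II invariant chain gene cd74a, whose product escorts MHC class II molecules, had a signal of 14409 in replicate 1 and 28764 in replicate 2 and held 2.50% and 2.97% of all reads. It ranked 2nd by mean signal, at 21586 ± 10150 (SD, n = 2). The nuclear non-coding RNA malat1 reached 15183 and 20854 at rank 3. The apolipoprotein genes apoc1 and apoeb, which encode carriers of lipid, had 6630 and 4128 in replicate 1, and 13984 and 11447 in replicate 2. Actin beta 2 (actb2) gave 6305 and 14301, and thymosin beta 4 (tmsb4x), which binds actin monomers, gave 6788 and 13029. The chemokine ccl34b.1 stood at 5623 and 9244. Cytochrome oxidase subunits encoded by the mitochondrial genome followed, mt-co3 at 5120 and 10345, mt-co2 at 4166 and 9178, and mt-co1 at 1978 and 8166. The second invariant chain gene cd74b had 4289 and 10970, and the class II beta chain gene mhc2dab had 1702 and 3750. Elongation factor eef1a1l1 and the mitochondrial ADP/ATP carrier slc25a5 closed the named genes of the top 30, the first at 1915 and 3459 and the second at 1163 and 3623. Each of these genes was higher in replicate 2.

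**Figure D1:**
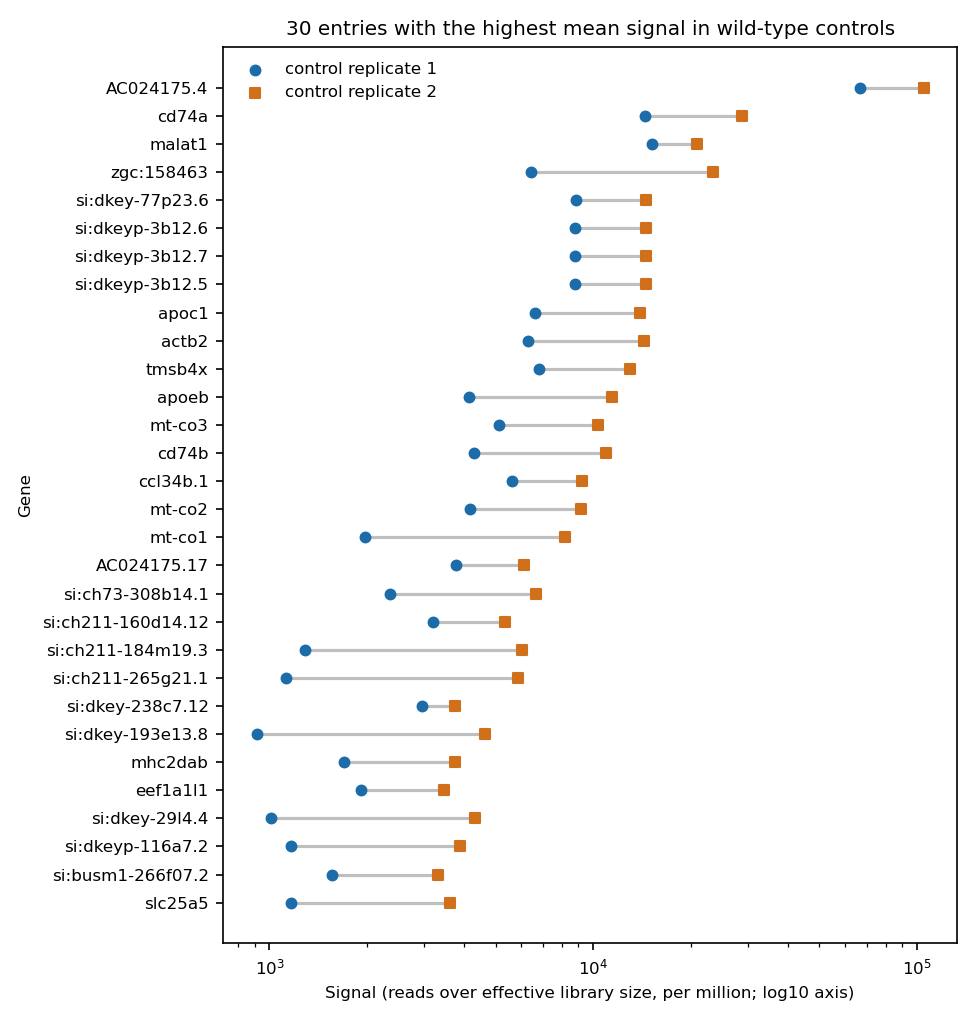
Signal on a log10 axis in control replicate 1 (circles) and control replicate 2 (squares) for the 30 entries with the highest mean signal, ordered by mean. Every one of the 30 is higher in replicate 2 on the deposited scale, and the first, AC024175.4, stands apart at 66563 and 104878.

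Entries without a gene name of their own made up a large part of the top. Of the 30 highest entries 15 carried only a clone-style name, and these held 21.8% of the reads of replicate 1 and 24.1% of those of replicate 2. The highest of all, AC024175.4, alone held 11.5% and 10.8%. Another 13 of the 30 belonged to a gene list and held 11.2% and 14.5%. The clone-named entries at ranks 5 to 8 (si:dkey-77p23.6, si:dkeyp-3b12.5, si:dkeyp-3b12.6 and si:dkeyp-3b12.7) lay within 1% of each other in both libraries, at 8812 to 8822 in replicate 1 and 14516 to 14522 in replicate 2. How reads matching several places were counted is not given in the sources used here, so values of near-identical copies are uncertain. The same holds for 2 entries both named socs3a, an inhibitor of cytokine signalling, with 306.4 and 305.9 in replicate 1 and 686.1 and 685.8 in replicate 2.

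Reads were concentrated in few genes. Shares here are of each library's own highest genes. Each near-identical copy described above counts as an entry of its own, an uncertainty that the intervals do not cover. The 10 highest held 26.2% (95% Wilson interval 26.18 to 26.26) of reads in replicate 1 and 27.3% (27.30 to 27.36) in replicate 2. The 100 highest held 45.1% (45.03 to 45.12) and 51.8% (51.81 to 51.88). A signal of at least 1000 was reached by 40 genes in replicate 1 and by 97 in replicate 2.

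By count of entries, the listed functions in the top 100 were mainly protein synthesis and macrophage identity. It held 65 entries from the gene lists, 12 other named genes and 23 clone-named entries. Of the 65, 29 encoded cytosolic ribosomal proteins, 12 were identity genes, 6 were genes of the mitochondrial genome, 5 belonged to the actin, tubulin and leukocyte cytoskeleton list and 4 to MHC class II with its invariant chain. A list member counts once for each list that holds it. By reads the order differed. The 23 clone-named entries, with no function assigned here, held 23.0% in replicate 1 and 25.2% in replicate 2. The 12 identity genes held 7.38% and 8.88%, and the 29 ribosomal protein genes 3.07% and 4.19%. The 100 highest are 0.457% of the entries tabulated, and 12 of the 60 identity genes in the table were among them.

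Genes that define macrophages and microglia lay near the top. Of 68 symbols in the identity list 60 were in the table. Their median percentile, with 100 for the highest entry, was 97.9, and 41 of the 60 (68.3%) were among the 1000 highest, which are 4.57% of all entries. The list was chosen with earlier results of these data known, and it holds the gene whose promoter drove the sort. Its contrast with all entries is therefore a description only. The identity genes held 8.45% of the reads of replicate 1 and 10.1% of those of replicate 2. The reporter's own gene, mpeg1.1, had 745 and 1080 at rank 71. The receptor gene csf1rb had 901 and 1356 at rank 53. The Fc receptor adaptor fcer1gl had 1594 and 2909, and the galectin-3 binding protein gene lgals3bpb had 2099 and 2262. The myeloid transcription factor genes spi1a, spi1b and irf8 had 291, 225 and 354 in replicate 1, and 700, 499 and 544 in replicate 2. The pan-leukocyte phosphatase gene ptprc (CD45) had 159 and 365, and the leukocyte cytoskeletal genes lcp1 and coro1a had 268 and 338 in replicate 1, and 624 and 671 in replicate 2.

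Other defining genes were measured at much lower ranks. The purinergic receptor gene p2ry12 had 32.6 and 26.3 at rank 2896, lower in replicate 2 on the deposited scale. The amino acid transporter gene slc7a7, needed for zebrafish microglia to form, had 87.3 and 146, and the lysosomal hexosaminidase gene hexb had 53.9 and 114. The signalling adaptor gene tyrobp gave 5.58 and 9.39. The receptor gene p2ry13 had 1 read in replicate 1 and 0 in replicate 2, both under the floor of 3 reads. Of the 60 identity genes 50 reached a mean signal of at least 10, where 7374 of all 21860 entries did. Symbols of the list without a row, trem2 and cx3cr1 among them, were not analysed here.

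**Figure D2:**
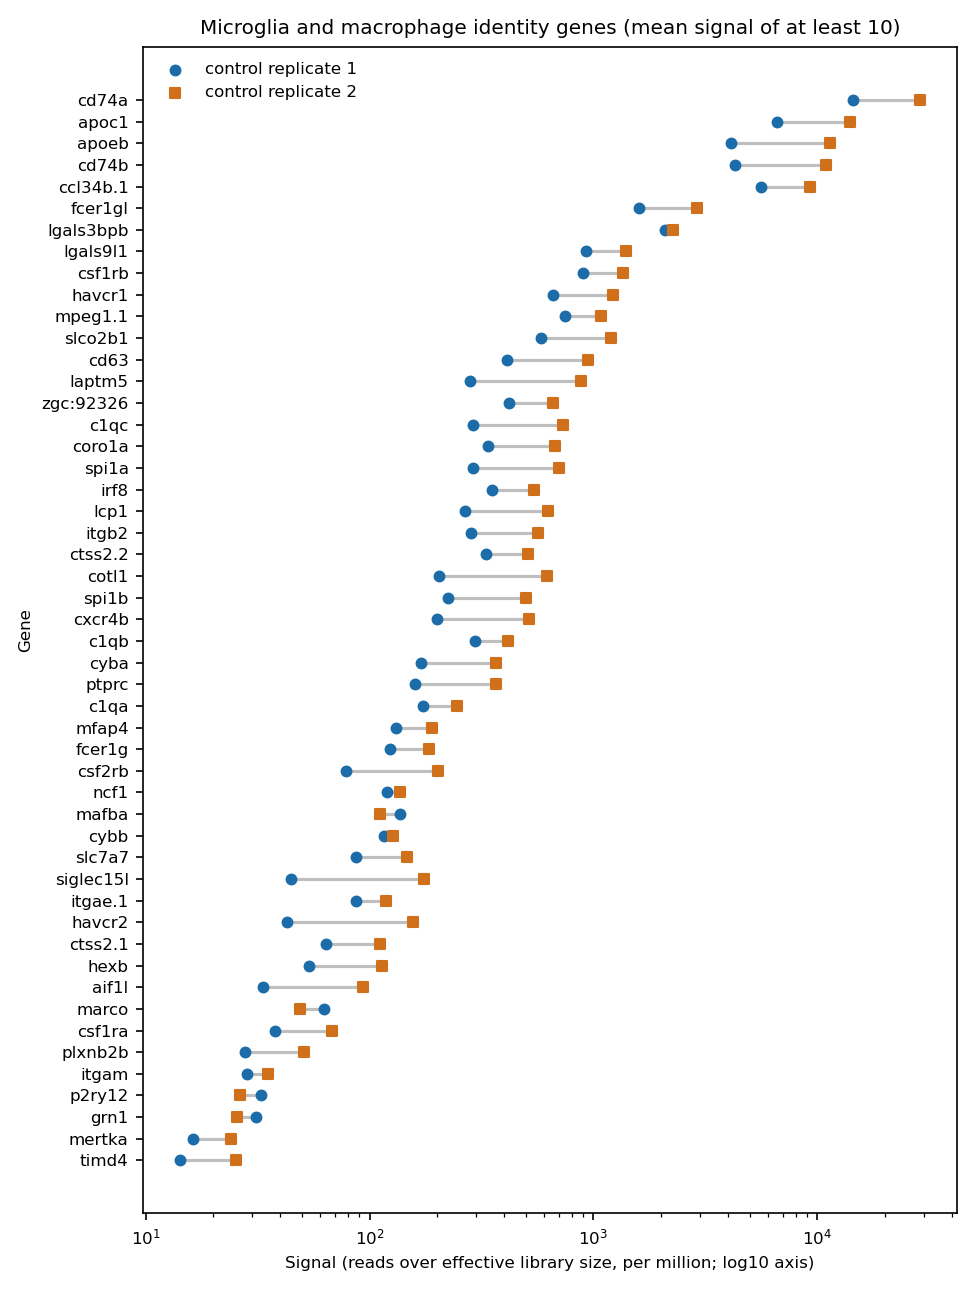
Signal on a log10 axis in control replicate 1 (circles) and control replicate 2 (squares) for the 50 identity genes with a mean signal of at least 10, ordered by mean. Values run over 3 orders of magnitude, from cd74a at 14409 and 28764 to the phosphatidylserine receptor timd4 at 14.3 and 25.3.

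Genes of engulfment and complement split into a high part and a low part. The median percentile of the 38 members was 62.1, or 73.5 in replicate 1 alone and 58.1 in replicate 2 alone. Of them, 11 (28.9%) were among the 1000 highest, against 4.57% of all entries. The complement genes c1qa, c1qb and c1qc, whose products form the first component that tags debris, had 174, 295 and 289 in replicate 1, and 245, 415 and 734 in replicate 2. The phosphatidylserine receptor gene havcr1 had 659 and 1223. The mannose receptor gene mrc1b had 243 and 670, and the engulfment adaptor gene elmo1 had 319 and 593. Of the 38, 10 also belong to the identity list.

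Lysosomal genes were spread over a wide range. Of 59 members in the table, with a median percentile of 86.4, 20 (33.9%) were among the 1000 highest, against 4.57% of all entries. The prosaposin gene psap, whose product activates lysosomal lipid hydrolases, had 565 and 922. The tetraspanin gene cd63 had 410 and 943, the leukocyte lysosomal membrane gene laptm5 had 282 and 884, and the granulin gene grna had 451 and 834. Cathepsin C (ctsc) stood at 337 and 577. Of the V-ATPase, the proton pump that acidifies lysosomes, 29 members had a median percentile of 89.8, led by atp6v0ca at 404 and 588 and atp6ap2 at 280 and 575.

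Antigen presentation was represented by both MHC classes. The 14 members of the class II list held 3.89% and 4.93% of reads, of which 3.81% and 4.84% came from cd74a, cd74b, mhc2dab and si:busm1-266f07.2, the last at 1557 and 3322 and named mhc2daa in the name table. The class II transactivator gene ciita had 148 and 142, lower in replicate 2 on the deposited scale. The last 5 members were under a mean signal of 25. Of the class I list, the heavy chain gene mhc1uba had 1532 and 2071, and the light chain genes b2m and b2ml had 808 and 653 in replicate 1, and 1625 and 1188 in replicate 2. Another class I gene, mhc1zba, had 397 and 715.

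Most chemokine and chemokine receptor genes were low, with a few far above the rest. The median percentile of 60 members was 35.7, and 11 had 0 reads in at least 1 library. Over all 21860 entries, 1449 had 0 reads in at least 1 library, with 408 at 0 in replicate 1 and 1137 in replicate 2. Below ccl34b.1 came ccl19a.1 at 222 and 518, the receptor genes cxcr4b at 201 and 517 and cxcr3.2 at 104 and 209, and ccl35.1 at 192 and 124. Of the 60, 7 (11.7%) were among the 1000 highest, against 4.57% of all entries.

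Lipid genes showed the same shape. The median percentile of 39 members was 59.3, and apoc1 with apoeb made up most of the 2.04% and 2.81% of reads held by the list. Cholesterol 25-hydroxylase (ch25h) had 362 and 530, the lysosomal cholesterol carrier npc2 had 169 and 441, and the cholesterol efflux pump abca1a had 45.4 and 181.

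Among 59 myeloid transcription factor genes, xbp1, a factor of the unfolded protein response, had 442 and 1217 and egr1 had 774 and 647. After spi1a came fosab at 680 and 221. The sall genes were singled out after their values were seen, because Sall1 marks microglia in mice. Signal was 345 and 310 for sall3a, 10.2 and 4.82 for sall1a, and 0.680 and 5.19 for sall1b.

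Inflammatory and interferon genes were moderate. The interferon list of 43 members had a median percentile of 68.9, led after b2m by ifi30, a lysosomal thiol reductase gene, at 147 and 633, and by the kinase gene jak1 at 162 and 307. The genes irf2 and stat1a had 96.4 and 97.0 in replicate 1, and 111 and 108 in replicate 2. Of 48 inflammatory genes, with a median percentile of 68.3, txnipa had 805 and 1604, alox5ap of leukotriene synthesis had 231 and 346, the NF-kB inhibitor nfkbiab had 88.8 and 366 and the receptor tnfrsf1a had 87.9 and 162. The inflammatory caspase gene caspb stood at 75.5 and 84.0.

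Immediate early genes, which respond within minutes to stimuli that include tissue dissociation, held 0.628% of reads in replicate 1 and 0.477% in replicate 2. The growth inhibitor gene btg1 led by mean signal at 524 and 926, ahead of egr1. Of 44 members, 9 (20.5%) were among the 1000 highest, against 4.57% of all entries. Both near-identical socs3a entries count in the 9 and in the shares of reads. Of the 77 heat shock and chaperone genes, hsp90ab1 at 914 and 1490 and hspa8 at 595 and 1162 were the 2 among the 1000 highest. What part the dissociation had in these levels was not tested.

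Ribosomal protein genes had one of the 2 highest median percentiles. The 90 members of the cytosolic ribosomal protein list had a median of 99.4. Of them, 85 (94.4%) were among the 1000 highest, against 4.57% of all entries. They held 6.16% and 8.16% of reads, led by RPL41 at 1563 and 2687 and rps2 at 942 and 2292. A few stood low, among them rps8b at 0 and 2.84. The 13 genes of the mitochondrial genome, which encode subunits of the respiratory chain and ATP synthase, also had a median of 99.4 and held 2.75% and 3.95% of reads. Clone-named entries, the highest entry of all among them, were not in this list, so these shares cover the 13 genes only. Whether any clone-named entry comes from the mitochondrial genome was not examined, so the share of that whole genome is not given. Nuclear-encoded respiratory chain genes, 108 in all, had a median of 89.8, led by cox4i1 at 154 and 390. The 56 proteasome genes had a median of 84.7, led by psma1 at 41.2 and 132.

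The cytoskeleton list, 66 genes with a median percentile of 96.1, held 3.58% and 4.51% of reads, with profilin (pfn1) at 1024 and 2457 and cofilin (cfl1) at 664 and 985 after the actins and tmsb4x. In the iron and redox list, the oxidase subunit gene cyba had 169 and 369, and glutathione peroxidase gpx1a had 138 and 332. Glycolysis was led by pkma at 334 and 410 and gapdhs at 163 and 378. Translation factors held 1.07% and 1.28% of reads. Of 45 proliferation genes, with a median percentile of 42.9 (51.3 in replicate 1 alone and 34.7 in replicate 2 alone), ccnd1 had 150 and 344, and pcna had 15.4 and 19.1.

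**Figure D3:**
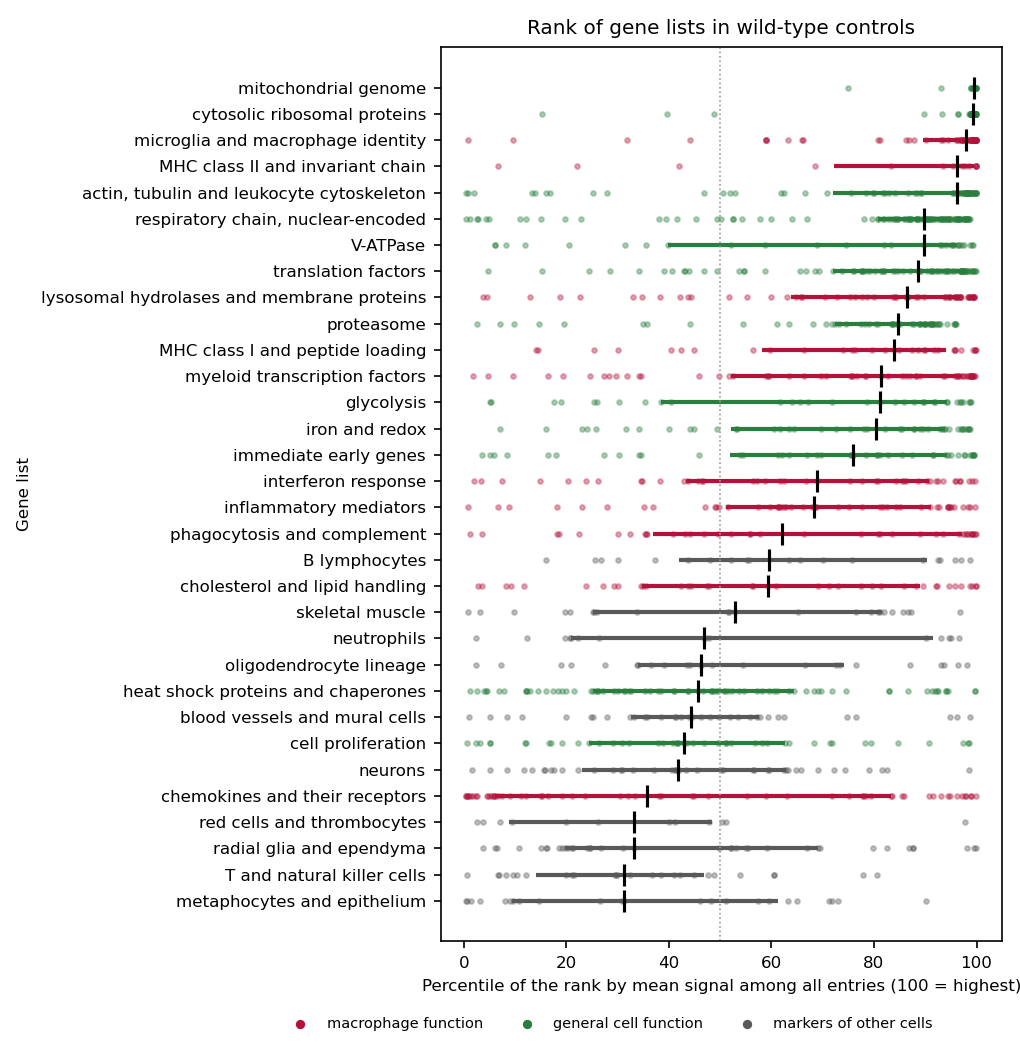
Percentile of each member's rank by mean signal among all entries, for the 32 gene lists ordered by their median (black ticks); bars run from the first to the third quartile and points are genes. Ribosomal and mitochondrial genome genes lead at 99.4, macrophage identity follows at 97.9, and the lists of other cell types lie between 31.1 and 59.5. Medians are of the mean of both libraries and differ between single libraries by up to 17.02 points.

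Most lists of genes that mark other cells had a median below the middle of all entries. Members among the 1000 highest ran from 0% (T and natural killer cells, metaphocytes and epithelium) to 15.0% (B lymphocytes), against 4.57% of all entries. The 10 lists had median percentiles between 31.1 (metaphocytes and epithelium) and 59.5 (B lymphocytes). B lymphocytes, and skeletal muscle at 52.9, lay above the middle. None of the lists shared a gene with the identity list. Several of these medians differed between the libraries, among them radial glia and ependyma at 26.0 in replicate 1 alone and 43.1 in replicate 2 alone, and B lymphocytes at 50.7 and 65.5. In bulk RNA, fewer cells of a type and less RNA per cell cannot be told apart. Radial glia and ependyma held 0.195% of reads in replicate 1 and 0.420% in replicate 2. Their highest members were glula, glutamine synthetase, at 714 and 2392, and epd, a secreted brain glycoprotein of fish, at 79.4 and 1118. Most of the list's reads came from these genes. Glula held 0.124% of reads in replicate 1 and 0.247% in replicate 2, and epd held 0.0138% and 0.116%. The rise in the list's share is therefore not one of the list as a whole. The median percentile of the 37 members was 33.1. The glial genes fabp7a and cx43 had 0.816 and 40.5 in replicate 1, and 21.5 and 18.8 in replicate 2.

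The other lists each held under 0.1% of reads in each library, counting only symbols with a row. For red cells and thrombocytes these were 12 of 27 symbols, with no haemoglobin gene among them. That list held 0.0241% in replicate 1 and 0.0233% in replicate 2. Of this the ferritin gene fth1a, also in the iron and redox list, held 0.0175% and 0.0208%. Among 42 neuronal genes the adhesion gene nptna had 114 and 386, while the synaptic gene syn2b had 12.6 and 29.0 and snap25a averaged 11.2 ± 6.90 (SD, n = 2). Myelin basic protein (mbpa) had 176 and 195. The endothelial adhesion gene pecam1, which leukocytes express too, had 149 and 407. Of 20 B lymphocyte genes, 8 reached a mean signal of at least 10, where 7374 of all 21860 entries did. The kinase gene syk, shared by myeloid cells, had 145 and 407, and the immunoglobulin light chain gene igic1s1 had 59.3 and 155. Another light chain gene, igl3v5, had 46.9 and 117, and cd22 had 20.9 and 82.2. Of the 8 genes at a mean signal of at least 10, 5 were higher in replicate 2 on the deposited scale. Blnk at 49.1 and 49.0, ighv1-4 at 52.9 and 22.1, and POU2AF1 at 20.7 and 9.51 were not. The B cell receptor gene cd79a averaged 8.84 ± 4.61 (SD, n = 2). Among 26 T and natural killer genes the highest, dusp2, had 22.4 and 16.9, and zap70 had 6.12 and 9.76. The neutrophil peroxidase gene mpx had 9.93 and 0.247, the second value under the floor of 3 reads, and nccrp1 had 27.6 and 172. Of 15 neutrophil genes, 5 reached a mean signal of at least 10, a share near that of all entries. Among them were il6r at 83.0 and 56.6 and csf3r at 44.2 and 87.4. Skeletal muscle myosin myhz2 had 30.6 and 28.2. The part of these cells in the profile was not tested.

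Paralogues differed in where they ranked, with the lengths of their transcripts not taken into account. Of 20 pairs listed, 19 had both members in the table. Signal was 37.7 and 67.9 for csf1ra at rank 1535, beside 901 and 1356 for csf1rb. Apoea had 3.81 and 1.73, beside 4128 and 11447 for apoeb. The granulin genes grnb and grn1 had 20.7 and 31.1 in replicate 1, and 14.6 and 25.6 in replicate 2, while grn2 averaged 9.86 ± 3.17 (SD, n = 2). Mpeg1.2 had 13.1 and 1.98. The Fc receptor adaptor fcer1g had 124 and 185, the receptor havcr2 had 42.7 and 157, and cathepsin genes ctss2.1 and ctss2.2 had 64.1 and 332 in replicate 1, and 112 and 511 in replicate 2. Transferrin receptor tfr1a had 1.22 and 0.370, beside 32.2 and 49.3 for tfr1b.

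Most of the leading genes were the same in both libraries. They shared 9 of their 10 highest genes, 24 of 30, 87 of 100, 414 of 500 and 776 of 1000, with near-identical copies counted separately. Spearman's rho over all 21860 entries was 0.67, given as a description of 2 libraries. It was 0.54 over the 7374 genes with a mean signal of at least 10 and 0.79 over the 739 genes with at least 100. The share within 2-fold did not follow the same order: it was 55.6% from 10 to 100, 54.6% from 100 to 1000, and 44.1% (26 of 59) at 1000 or more, where 10.2% lay more than 4-fold apart. Of the 7374, 4085 (55.4%) lay within 2-fold and 1047 (14.2%) lay more than 4-fold apart. For 1314 of them (17.8%) the exact 95% interval of the ratio, which covers counting error only, held 1, and for 1490 (20.2%) it held the median ratio.

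Disagreement depended on level. The median ratio of replicate 2 over replicate 1, on the log2 scale, was -0.72 for genes with a mean signal under 1, -0.44 from 1 to 10, 0.48 from 10 to 100, 0.93 from 100 to 1000, and 1.07 at 1000 or more, where 58 of 59 genes were higher in replicate 2. Among genes with at least 10, 5055 (68.6%) were higher in replicate 2, but 43.0% of those with reads in both were higher when reads were divided by library totals. In all, 6 genes with a mean signal of at least 10 had 0 reads in 1 library. They were CXCL11 (1 of many), lrwd1 and PLPP1 (1 of many) with 269, 224 and 160 reads in replicate 1, and si:dkey-58f10.11, si:ch73-266m14.1 and jmjd7 with 238, 186 and 170 reads in replicate 2.

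**Figure D4:**
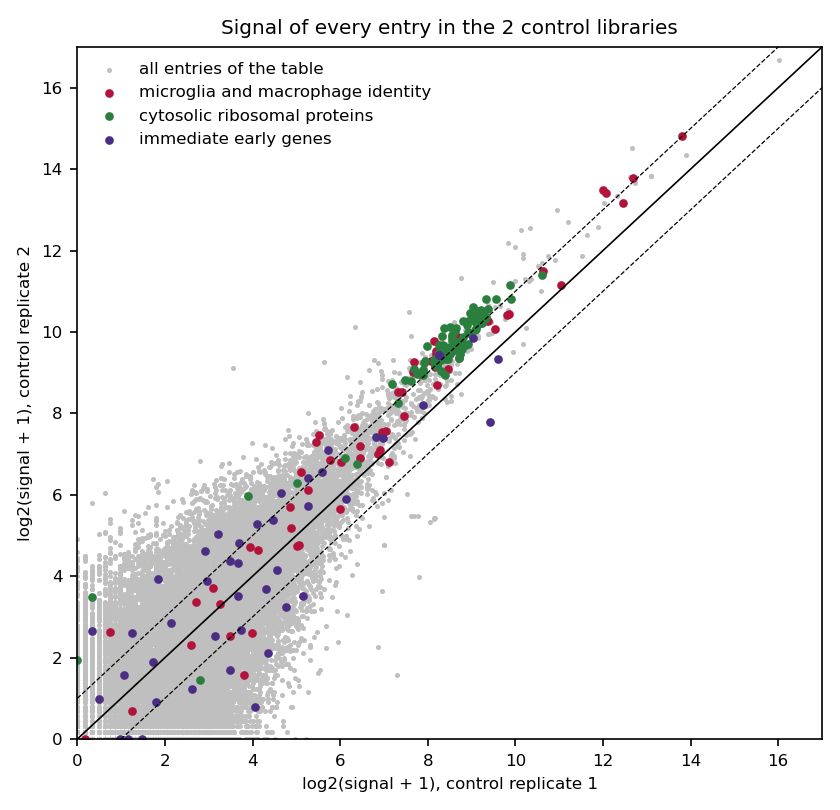
log2(signal + 1) of every entry in control replicate 1 (x axis) and control replicate 2 (y axis), with the line of equality solid and 2-fold differences dashed. Identity genes (red) and ribosomal protein genes (green) lie mostly above the line of equality, immediate early genes (purple) on both sides, and scatter widens at low signal.

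For the lists, too, the agreement between libraries was read on both scales. Of 50 identity genes with a mean of at least 10, 31 (62.0%) lay within 2-fold on the deposited scale, where 55.4% of all genes at that level did. On total reads, added after seeing the data, the counts were 44 of 50 (88.0%) and 61.1% of all genes. These shares were not tested against each other. Of the 7374 genes at that level, 6635 had a mean signal under 100, while the median signal of the identity list was 157. No share of genes at a like level was taken on total reads, for closeness or for direction. List and level therefore cannot be told apart on that scale. None of the 50 was more than 4-fold apart on the deposited scale. The identity genes were higher in replicate 2 in 46 of 50 cases on the deposited scale, but in 28 of 50 on total reads, with a median of 0.11 on the log2 scale. Of all genes with a mean of at least 10, 68.6% were higher on the deposited scale and 43.0% on total reads. The deposited share depended on level and was 93.1% from 100 to 1000, so counts of highly ranked lists on that scale are near those of other genes as high. Ribosomal protein genes were higher in replicate 2 in 87 of 87 cases on the deposited scale and in 82 of 87 on total reads, with a median of 0.42. All 13 mitochondrial genome genes were higher on both scales. Proteasome genes, at 45 tested, had a median of 0.54 on total reads, while chemokine genes had a median of -0.44 and were higher in 6 of 21. The skeletal muscle list had a median of -1.85 over 10 genes.

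Which of the 100 highest entries were closest to equality depended on the scaling. On the deposited scale the 10 closest were led by lgals3bpb with a ratio of 1.08 (exact 95% interval 1.055 to 1.101), and also held mhc1uba with 1.35, malat1 with 1.37, the ubiquitin ligase gene RNF213 with 1.44, and mpeg1.1 and marcksl1a with 1.45 each. By share of reads lgals3bpb held 0.364% in replicate 1 and 0.234% in replicate 2, a ratio of 0.64 on total reads. On total reads mpeg1.1 had a ratio of 0.87 and malat1 0.82. The 10 closest on that scale shared no entry with the first 10, and its named genes were ccl34b.1 with 0.98, RPL41 with 1.03, psap with 0.97 and hsp90ab1 with 0.97.

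Some well-measured genes were far apart. Cathepsin B (ctsba), a lysosomal protease, had 79 reads in replicate 1 and 4511 in replicate 2, or 10.7 and 557 in signal, a ratio of 51.8 (exact 95% interval 41.5 to 65.6). Epd had a ratio of 14.1 (12.9 to 15.3), and the co-chaperone gene fkbp5, at 48.7 and 611, had 12.5 (11.3 to 14.0). The amino acid transporter gene slc43a2a had 188 and 1430, and the leucine zipper gene tsc22d3 had 70.7 and 474. The chemerin receptor gene cmklr1 had 109 and 632, and the scavenger receptor gene stab1 had 42.3 and 221. Erh, nt5dc2 and h3f3b.1 had ratios of 7.06, 6.89 and 5.27.

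In the other direction, 7 of the 10 genes farthest apart were entries named U2, a spliceosomal RNA, with 196 to 287 in replicate 1 and 39.4 to 43.8 in replicate 2. The immediate early gene fosab had 680 and 221, a ratio of 0.33 (0.31 to 0.34). The linker histone gene h1fx had 143 and 68.4, and ccl35.1 had 192 and 124 with a ratio of 0.65 (0.59 to 0.70).

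**Figure D5:**
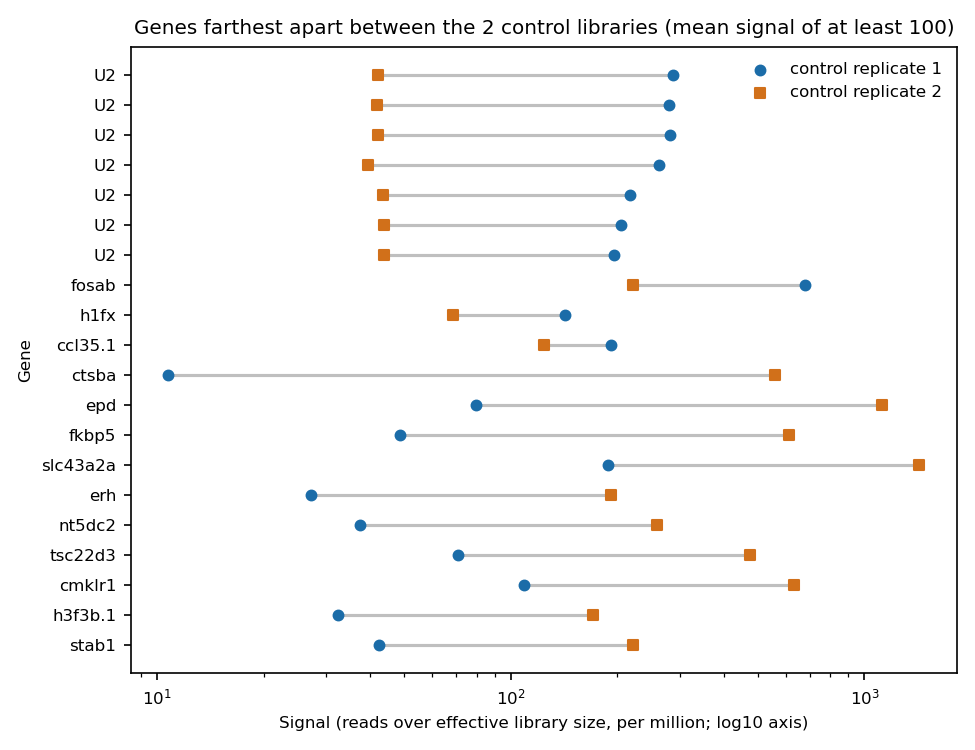
Signal on a log10 axis in control replicate 1 (circles) and control replicate 2 (squares) for the 20 named genes farthest apart with a mean signal of at least 100, 10 in each direction. The 10 upper rows are higher in replicate 1 and the 10 lower rows are higher in replicate 2, with ctsba widest at 10.7 and 557.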

How the data were processed

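RNA of sorted brain cells was measured in 2 control libraries. The deposited table gives signal, headed CPM by the authors; the values divide reads by an effective library size. Per the submitters' processing notes HISAT2, edgeR and the GRCz10 assembly were used; versions, annotation and the counting of shared or overlapping reads were not stated in the sources used here. Every signal was a whole multiple of the smallest step of its library (100% of entries, tolerance 0.001), so reads were recovered. Another 19 per-sample columns were not used. The design had been written for counts per gene, and the signal was used as deposited.

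Entries were ranked by mean signal. The percentile is the rank among 21860 entries. No test between groups was made. Ratios are replicate 2 over replicate 1 with exact 95% intervals from the reads. The 32 gene lists were matched by symbol, or by the name table (19304 IDs matched) where the table gives no gene name; hspg2, hspbp1, cd3eap and kinases or binding proteins whose symbols merely begin like a list's were dropped. Members and lists were chosen with earlier results of these data known. Named genes were drawn from the 30 highest, the 5 highest of each list with the defining identity genes, the 10 farthest apart in each direction at a mean signal of at least 100, the 10 closest of the top 100, and 20 paralogue pairs. Outside this rule, tyrobp, timd4, ciita, the sall genes, rps8b, pcna, fabp7a, cx43, snap25a, cd79a, zap70, mpx and the genes at 0 reads in 1 library were chosen after their values were seen. Alternatives were another mean, total-read and median-ratio scaling, other minimums and pseudocounts (1 and 0.25), and each replicate left out. Ranking and ratios were tested on simulated data. Tools were Python 3.11.15, pandas 2.3.3, numpy 2.4.6, scipy 1.17.1 and matplotlib 3.10.9.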

Additional observations from a re-analysis of the deposited data

How the results depend on the processing

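The number of top 100 genes shared by both libraries was 87, and stayed 87 with the geometric mean and on total reads. It was 85 without entries named as mitochondrial or small non-coding RNA genes, and 82 without clone-named entries (added after seeing the data). Of the 500 highest, 82.8% were shared. The share of genes within 2-fold was 55.4%, and became 61.1% on total reads, 45.0% at a mean signal of at least 1, 53.7% at 100, 42.6% with no filter, 57.6% for the ratio of signal plus 1, and 62.2% when scaled to the median ratio of genes with a mean of at least 10, an alternative added after seeing the data. The rank correlation of 0.67 became 0.62 at a mean signal of at least 1 and 0.54 at 10, and Pearson's r was 0.76 on log2(signal + 1) and 0.71 on log2(signal + 0.25). The 100 highest genes by mean signal held a mean of 48.3% of reads, and 37.8% without clone-named entries (added after seeing the data). With 1 replicate left out the share was 45.1% to 51.8%. The median percentile of identity genes, 97.9, ran from 97.8 to 98.1 with 1 replicate left out and was 97.3 without MHC class II, lipid and chemokine members, also added later. Of the 31 other lists, the median moved beyond 1 SD in 15 without control replicate 2 and in 8 without control replicate 1. That SD comes from the same 2 single-library medians, so these counts do not measure robustness. The gap between single libraries was at most 17.02 percentile points. Levels per coding length were not run, as no lengths of the build were used. No paired analysis was possible because the profile uses 1 group. The cause of these shifts was not tested.

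With 2 libraries, SDs are imprecise, and intervals cover counting error only. Of 221 named genes' mean signals, 57 moved beyond 1 SD on total reads. That scaling raises every value, 1.73-fold in replicate 1 and 1.03-fold in replicate 2, so the count is not a measure of robustness.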

Other observations

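Genes that in vertebrates respond to glucocorticoids were listed after fkbp5 and tsc22d3 were seen among the genes farthest apart, so the list was chosen from these values and no test was made. Of 16 measured members, 14 were higher in control replicate 2 on the deposited scale and 12 on total reads. These 16 include fkbp5, tsc22d3 and slc43a2a, all among the genes farthest apart, and some members with a mean signal under 10. Over all genes with a mean signal of at least 10, 68.6% were higher on the deposited scale and 43.0% on total reads. With no minimum signal, 48.2% of all entries were higher on the deposited scale. The transcription factor gene klf9 had 0.544 in replicate 1 and 64.5 in replicate 2, the kinase gene pdk2b had 7.89 and 44.7, and sgk1 had 11.7 and 29.3. The glucocorticoid receptor gene nr3c1 had 63.1 and 124, a ratio of 1.97. Lower in replicate 2 was zbtb16b, at 10.2 and 3.83, and zbtb16a had 22.4 and 20.3.

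Circadian clock genes, also listed after values were seen, were higher in replicate 2 in 17 of 24 cases (70.8%) on the deposited scale. On total reads 10 of 24 (41.7%) were higher, near the 43.0% of all genes with a mean signal of at least 10. The 24 include members with a mean signal under 10. On the deposited scale, 48.2% of all entries and 68.6% of genes with a mean signal of at least 10 were higher in replicate 2. The clock output factor tefa had 442 and 705, the repressor nr1d2a had 88.1 and 346, and per3 had 139 and 257. The repressor bhlhe40 had 407 and 418, and per2 had 54.1 and 68.0. The labels give no time of day of collection, and its part in these values was not tested.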
